A study of Mus musculus with 11 samples.

Results

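Genes for axon guidance ligands and their receptors were examined for H3K27me3, a repressive histone mark, in the embryonic mouse forebrain. The 68 genes were every protein-coding gene on chromosomes 1 to 19 that belongs by its symbol to the semaphorins, plexins and neuropilins, ephrins and Eph receptors, Slits and Robos, or netrins and their *Dcc* and Unc5 receptors. They comprised 36 ligand and 32 receptor genes of 20807 protein-coding genes on these chromosomes, and 3 family members on the X chromosome (*Efnb1*, *Plxna3* and *Plxnb3*) were not included. H3K27me3 was profiled by CUT&Tag, in which an antibody tethers a transposase that cuts and tags DNA near the modified histone, in the medial (MGE), caudal (CGE) and lateral (LGE) ganglionic eminences (GEs) and the cortex (CTX). All tissue came from wild-type C57BL/6J embryos, with 2 samples of MGE and 3 each of CGE, LGE and CTX. The titles number 2 replicates per region, and replicate 2 of each region but MGE is present as 2 samples. The study places this assay at E12.5, while the labels' protocol names dissections at E12.5 and E14.5 without an age for each sample and also mentions mixing equal numbers of nuclei of the 4 regions, although each sample is labelled with 1 region. About 100000 nuclei entered each reaction. A dissected region holds dividing progenitors as well as young neurons, and fewer cells with the mark cannot be told apart from less mark per cell.

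The authors merged the samples of each region and called 1 list of broad peaks per region, so that these values have no replicate error, and no difference between regions was tested. For each gene, coverage is the percent of bases lying under peaks in the 4 kb window that reaches 2 kb either side of the annotated 5′ end, the outermost one of the gene. A window was called marked where peaks covered 50% or more of it. Differences between lists are in percentage points of the window, and counts over the 68 genes are set beside the same share of all 20807 genes. Where 4 values follow each other without names, they are those of MGE, CGE, LGE and CTX in this order.

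Guidance cues steer growing axons and migrating neurons by attraction or repulsion. Semaphorins signal through plexins, and most of the secreted class 3 semaphorins also need a neuropilin. Slits bind Robos, ephrins bind Eph receptor tyrosine kinases, and netrins attract through *Dcc* and repel through Unc5 receptors. In the embryonic forebrain, interneurons born in the MGE and CGE migrate to the cortex, while the LGE gives rise to striatal projection neurons and olfactory bulb interneurons. H3K27me3 is deposited by Polycomb repressive complex 2, whose sites in mammals are mostly rich in CpG dinucleotides.

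The promoters of 4 genes are shown because they span the range found, from marked in every list to covered in none, and *Robo4* was chosen after its values were seen. Each line gives the 250 bases before the RefSeq transcription start on GRCm38.p6, written 5′ to 3′ on the strand of the gene, with CpG dinucleotides in capitals.
Epha8: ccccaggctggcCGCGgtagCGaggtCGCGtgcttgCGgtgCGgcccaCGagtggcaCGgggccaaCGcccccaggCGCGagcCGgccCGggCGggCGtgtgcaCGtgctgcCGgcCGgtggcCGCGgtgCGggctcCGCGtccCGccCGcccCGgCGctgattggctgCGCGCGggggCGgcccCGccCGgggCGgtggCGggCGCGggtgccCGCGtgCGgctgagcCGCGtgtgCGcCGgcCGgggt
Epha4: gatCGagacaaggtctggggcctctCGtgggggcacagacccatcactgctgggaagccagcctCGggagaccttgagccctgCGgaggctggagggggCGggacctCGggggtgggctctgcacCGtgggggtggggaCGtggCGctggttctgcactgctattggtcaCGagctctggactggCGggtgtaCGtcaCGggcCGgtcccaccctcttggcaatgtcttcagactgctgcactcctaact
Nrp1: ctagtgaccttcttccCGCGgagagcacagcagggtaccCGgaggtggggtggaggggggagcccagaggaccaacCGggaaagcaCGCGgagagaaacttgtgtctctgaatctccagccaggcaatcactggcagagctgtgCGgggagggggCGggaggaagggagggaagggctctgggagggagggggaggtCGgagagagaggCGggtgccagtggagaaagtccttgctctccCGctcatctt
Robo4: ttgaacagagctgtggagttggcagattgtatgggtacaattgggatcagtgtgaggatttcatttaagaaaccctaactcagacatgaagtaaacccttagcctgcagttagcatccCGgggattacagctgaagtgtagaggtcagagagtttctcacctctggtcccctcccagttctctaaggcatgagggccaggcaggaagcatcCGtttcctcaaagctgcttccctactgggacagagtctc
The *Epha8* sequence (chr4:136956817-136957066, minus strand) holds 46 CpG dinucleotides and lay wholly under peaks in all 4 lists. The *Epha4* sequence (chr1:77515089-77515338, minus strand) holds 14 and was covered only in CGE. The *Nrp1* sequence (chr8:128358823-128359072, plus strand) holds 11 and was covered only in LGE, and its RefSeq start lies 469 bases downstream of the 5′ end used for the window. The *Robo4* sequence (chr9:37401722-37401971, plus strand) holds 2 and was covered in no list. Among 32851 RefSeq promoters of this length the median number of CG dinucleotides, the only motif searched, was 6 (interquartile range 2 to 16) and 92.1% held at least 1. The 74 promoters of the 58 guidance genes with an entry had a median of 16 (8 to 23).

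The share of guidance genes under H3K27me3 peaks was above that of all genes in each list. Windows were marked for 22 of the 68 genes in MGE (32.4%, against 10.0% of all genes), 25 in CGE (36.8%, against 12.6%), 24 in LGE (35.3%, against 10.5%) and 26 in CTX (38.2%, against 11.2%). In all 4 lists, 14 genes were marked (20.6%, against 7.77%), and in none 34 (against 85.1% of all genes). No base of the window was covered in any list for 7 genes (10.3%, against 59.9%). Most windows therefore carried some H3K27me3, and few were filled by it. The base at the 5′ end itself was covered in all 4 lists for 22 genes (32.4%, against 15.0%). Between 8 and 14 genes per list lay within 5 points of the 50% threshold. No single peak touched the windows of 2 guidance genes at once, and 5 windows overlapped another protein-coding gene, among them that of *Efnb3*, which overlaps *Wrap53*.

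The 4 lists were not of equal size: on chromosomes 1 to 19 MGE had 14978 peaks over 24.0 Mb, CGE 18726 over 32.2 Mb, LGE 16461 over 25.9 Mb and CTX 18263 over 30.5 Mb, and the methods of the study name MGE as the region with the fewest reads and CGE as that with the most. The lists touched 52 to 56 of the 68 windows. Of the genes used to check the labels, *Lhx6*, an MGE regulator, was covered least in MGE (69.2%, against 100% in each other list), and the cortical regulators *Emx1*, *Neurog2* and *Lhx2* were covered least in CTX (87.1%, 51.9% and 29.8%, with *Lhx2* at 31.4% in LGE). The MGE regulator *Nkx2-1* and the cortical gene *Eomes* were at 100% in all 4 lists, the cortical gene *Neurod6* was at 0 in all 4, and *Nr2f2*, a CGE gene, was at 27.3% in CGE and 27.6% in CTX, so that coverage alone did not separate the labels at every marker. Some other markers were not lowest in the region they mark. *Lhx8*, an MGE gene, had 76.7% in MGE and 66% in CGE. *Sp8*, a CGE gene, had 47.7% in CGE and 0 in CTX. The cortical gene *Neurod2* had 54.5% in CTX and 47.7% in CGE. Of 2 further cortical genes, *Tbr1* had 52.1% in CTX and 53.7 to 54.1% elsewhere, and *Emx2* had 25.2% in MGE and 0 elsewhere. *Dlx1* and *Ebf1*, genes of the LGE and other GEs, were lowest in LGE (43.35% and 14.4%). *Dlx2* and *Gsx2* of this group were lowest in MGE (16.4% and 71.2%), and *Isl1* in CGE (24.1%). The progenitor genes *Sox2* (61.6 to 66%) and *Nes* (50.5 to 64.45%) were marked in all 4 lists. The neuronal gene *Tubb3* had 18.6 to 56.2%. Expression was not measured here, so a marked window cannot be read as a silent gene. Markers of blood and microglia (*Cx3cr1*, *Spi1* and *Hbb-bt*) and the endothelial *Pecam1* and *Tek* were at 0 throughout. Genes without a covered base cannot show a regional pattern, so they do not bear on the share of these cells. The endothelial *Cldn5* had 69.4 to 73.2%. Of 3 meningeal markers, *Col1a1* was at 100% throughout, while *Foxc1* had 56.3% in MGE and 100% in each other list and *Foxd1* ranged from 26.7 to 61.9%, and the part of meningeal tissue in the values of the guidance genes was not tested.

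**Figure D1:**
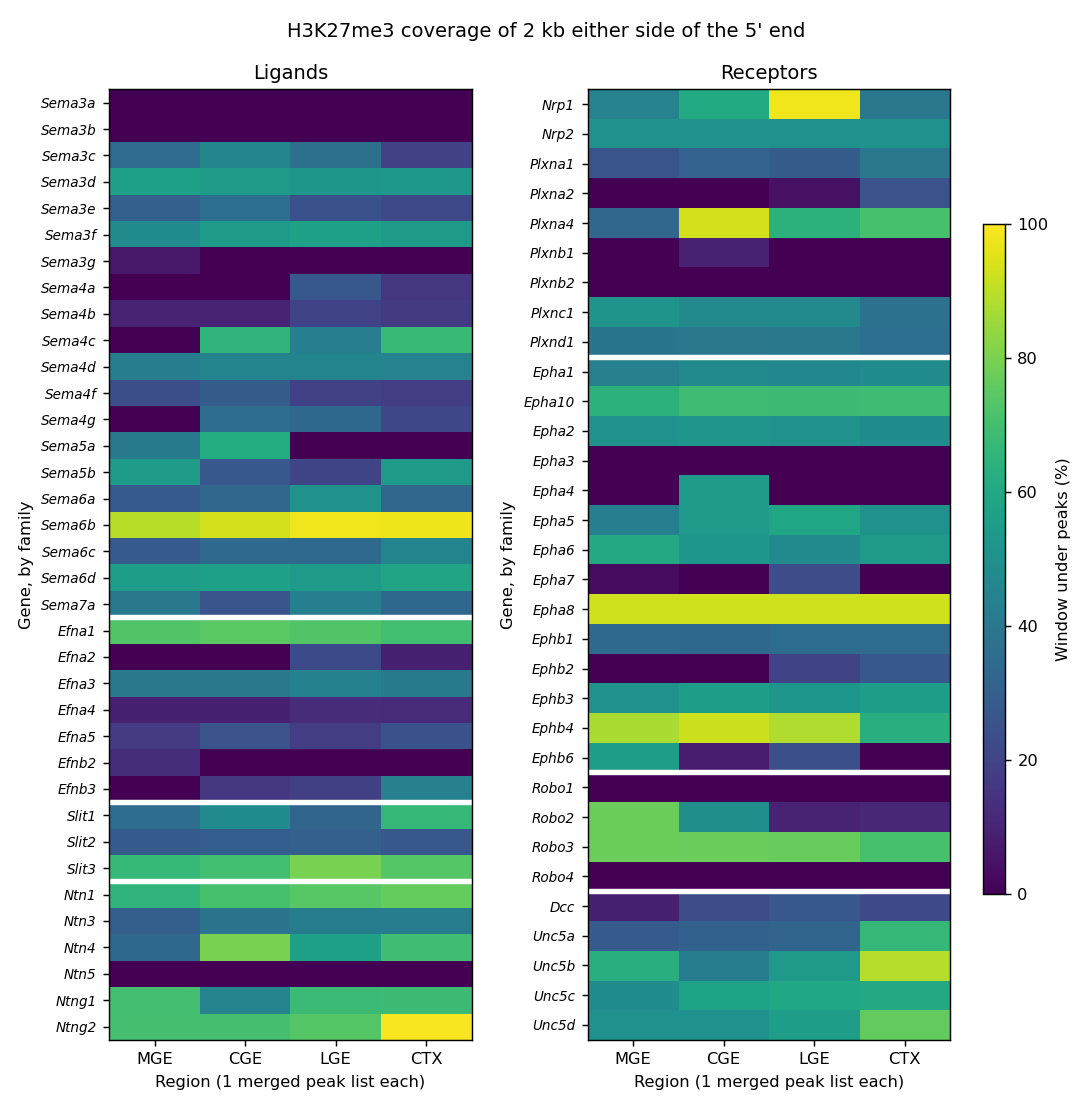
H3K27me3 coverage of the 4 kb window (percent of bases under peaks, color scale from 0 to 100) for the 36 ligand and 32 receptor genes in rows, with white lines between families, and the merged MGE, CGE, LGE and CTX lists in columns. *Epha8*, *Sema6b* and *Robo3* were covered at 70.8% or more in every list, whereas rows such as *Nrp1*, *Plxna4*, *Robo2* and *Sema5a* change from list to list.

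For the counts by family, the shares of all genes were 10.0%, 12.6%, 10.5% and 11.2% marked, and 7.77% in all 4 lists. Semaphorin windows were marked for 4 of 20 genes in MGE, 6 in CGE and 5 in LGE, and 6 in CTX, and for 3 genes in all 4 lists. *Sema6b*, a transmembrane ligand of plexin-A receptors, had the highest coverage among them at 89.4% in MGE, 93% in CGE and 97.8% in LGE, and 97.6% in CTX. The other 2, named after their values were seen, were the secreted *Sema3d* (53.1 to 57.2%) and the transmembrane *Sema6d* (54.5 to 58.3%). *Sema3f*, a secreted repellent that acts through neuropilin-2, lay near the threshold with 48.3% in MGE, 54.7% in CGE and 57.4% in LGE, and 54.6% in CTX. Its short gene body was covered at a median of 18.1% over the lists. *Sema6c*, another transmembrane semaphorin, had 28.6%, 34.2%, 34.3% and 45.2% of its window and a median of 28.8% of its gene body covered. *Sema3a*, the secreted neuropilin-1 ligand, had no covered base at its outermost 5′ end in any list. At other annotated 5′ ends of *Sema3a*, the most covered window reached 30.8% in MGE, 22.4% in CGE and 0 in LGE, and 54.8% in CTX, so that the bare window does not stand for every start site of the gene.

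*Sema4c* and *Sema5a* had the largest contrasts among semaphorins. *Sema4c*, a ligand of plexin-B2, had no covered base in MGE, 65.1% in CGE and 42.9% in LGE, and 67.3% in CTX. The CGE peak (chr1:36557746-36561837, 4092 bases, 2.47-fold enrichment, −log10 q of 4.64) and the CTX peak (chr1:36557658-36561837, 4180 bases, 2.12-fold, 2.19) ran from position -3488, counted along the direction of transcription from the 5′ end, into the start of the gene. The CTX peak is weak by its q-value, and the contrast between CTX and MGE was 0 when only peaks with a q-value under 0.001 were kept and when all lists were trimmed to equal covered bases. *Sema5a*, a transmembrane semaphorin with thrombospondin repeats, had 40.3% in MGE, 61.7% in CGE and no covered base in LGE or CTX. Its CGE peak (chr15:32243942-32246409, 2468 bases, 2.93-fold, −log10 q of 4.08) spanned the 5′ end, and its MGE peak (chr15:32245142-32246754, 1613 bases, 3.61-fold, 4.00) began at +332 within the gene.

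Plexin and neuropilin windows were marked for 2 of 9 genes in MGE, 3 in CGE and 3 in LGE, and 2 in CTX. *Nrp2*, the neuropilin that binds *Sema3f*, was covered almost identically in the 4 lists (51.2% in MGE, CGE and CTX and 51.3% in LGE). In each list a peak of 5210 to 5336 bases began at -46 or -51 and ran more than 5 kb into the gene, so that the downstream 2 kb were wholly covered and the upstream 2 kb almost free. *Nrp1*, the receptor for *Sema3a*, differed from list to list with 44.2% in MGE, 61.1% in CGE and 98.0% in LGE, and 39.6% in CTX. In LGE 1 peak (chr8:128356686-128361664, 4979 bases, 2.37-fold, −log10 q of 4.86) bridged the 5′ end from -1918 to +3060. The upstream peak ended at -318 in MGE, +9 in CGE and -416 in CTX, and another peak lay farther inside the gene in MGE (from +1916) and CGE (from +1566) but not in CTX. The upstream part of the *Nrp1* window was thus covered in all 4 regions (79.3 to 100%), whereas the 2 kb downstream of the 5′ end had 4.2% in MGE, 22.2% in CGE and 100% in LGE, and 0 in CTX. With peaks less than 3 kb apart joined, the gap between the 2 *Nrp1* peaks closed in MGE and in CGE, and their windows came to 100%, beside 98.0% in LGE and 39.6% in CTX. At a q-value under 0.001, *Nrp1* had no covered base in MGE and 50.3% in CGE, and LGE and CTX kept their values.

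*Plxna4*, a signaling partner of neuropilins and a receptor for class 6 semaphorins, had 32.9% in MGE, 93.2% in CGE and 64.4% in LGE, and 70.9% in CTX. Every list had a strong peak at or near the start of the gene, with a −log10 q of 9.97 in MGE, 16.9 in CGE and 20.1 in LGE, and 31.8 in CTX. The lists differed in how far it reached upstream, from +685 in MGE to -574 in LGE, -836 in CTX and -1729 in CGE, while its other end lay between +3193 and +3692. The contrast at *Plxna4* is thus one of peak extent and not of presence. For this gene MGE stayed at 32.9% and the lowest in every setting that filtered, joined or trimmed the lists. MGE is the shortest list, so trimming could not change its value, only those of the other lists.

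**Figure D2:**
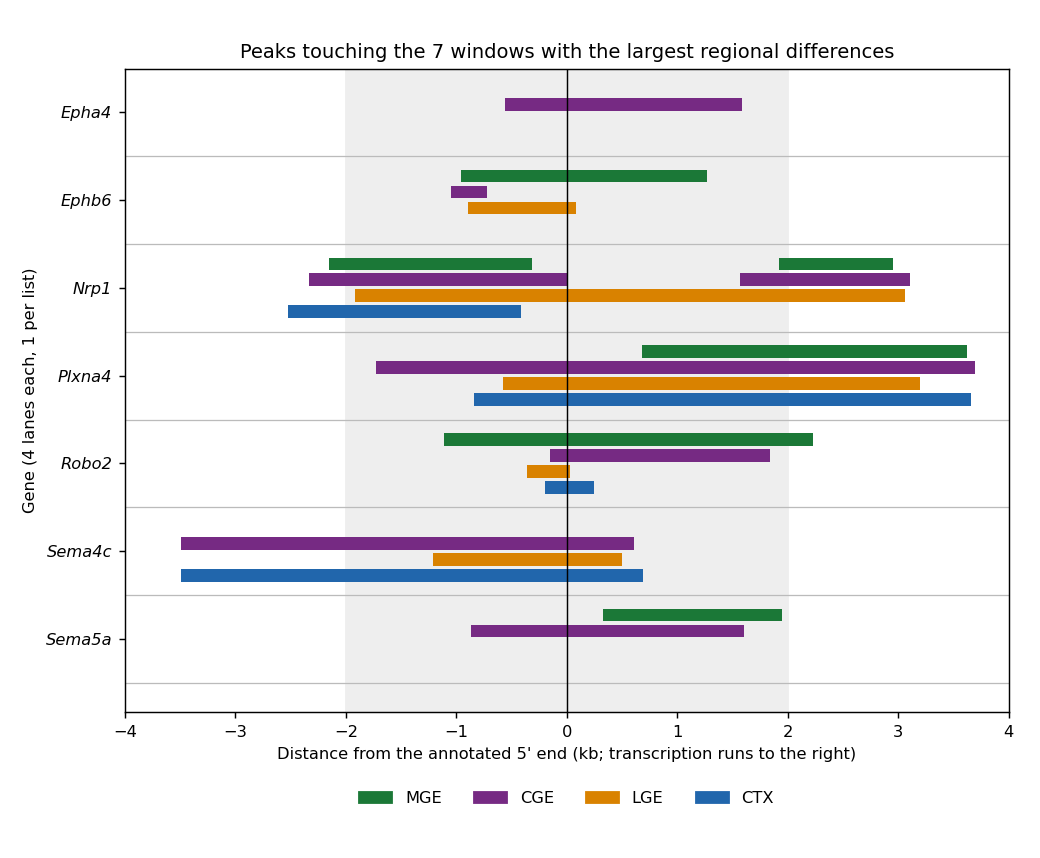
Peaks touching the windows of the 7 genes whose coverage differed by 50 points or more between lists, drawn by distance from the annotated 5′ end (kb, transcription to the right), with 1 lane and color per list and the 4 kb window shaded. *Epha4* had a peak only in CGE, *Nrp1* was bridged only in LGE, and the *Plxna4* peaks differed at their upstream edge.

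Of 7 ephrin windows 1 was marked, that of *Efna1* in each list, beside 10.0 to 12.6% of all genes. *Efna1*, a membrane-anchored A-type ephrin, had 72.9% in MGE, 74.4% in CGE and 72.9% in LGE, and 69.9% in CTX. Its neighbors on chromosome 3, *Efna3* and *Efna4* (named for its position, after its values were seen), had 40.1 to 44.1% and 8.65 to 12.8%, and the gene body of *Efna3* was covered at a median of 40.6%. *Efna5*, an A-type ephrin with a graded expression in many brain areas, had 17.5% in MGE, 25.4% in CGE and 18.1% in LGE, and 25.4% in CTX, all of it downstream of the 5′ end. *Efnb2*, a transmembrane B-type ephrin, had 13.3% in MGE and no covered base in the other 3 lists.

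Eph receptor windows were marked for 7 of 14 genes in MGE, 8 in CGE and 6 in LGE, and 6 in CTX, and for 4 in all 4 lists. Coverage of *Epha8* was 92.9% in each list, under peaks of 3717 to 3901 bases that ended at the same base, +1713, in all 4. Their −log10 q was 37.5 in MGE, 91.2 in CGE and 64.4 in LGE, and 71.1 in CTX, against medians of 7.22 to 16.2 per list for peaks on guidance genes. *Epha10*, an Eph receptor without kinase activity, had 64.4% in MGE and 68.5 to 69.0% elsewhere. *Ephb3* had 51.5 to 56.1% and a median of 12.2% of its gene body covered, and *Epha1* had 43.7 to 48.4% and 12.6%. *Epha5*, a receptor for A-type ephrins, had 43.3% in MGE, 54.2% in CGE and 58.7% in LGE, and 51.3% in CTX.

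*Epha4*, which binds ephrins of both types, had 53.5% in CGE and no covered base in MGE, LGE or CTX. A single CGE peak (chr1:77513507-77515647, 2141 bases, 2.95-fold, −log10 q of 4.57) lay from -559 to +1581, and the CGE value was the same after each change of the lists. *Ephb6*, which like *Epha10* lacks kinase activity, had another arrangement with 55.7% in MGE, 8.18% in CGE and 24.4% in LGE, and none in CTX. Its peaks were weak in each list that had one, with a −log10 q of 1.85 in MGE, 1.96 in CGE and 1.71 in LGE, and none remained at a q-value under 0.001.

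Slit windows were marked for *Slit3* in every list (66.8% in MGE, 69.7% in CGE and 79.9% in LGE, and 73.8% in CTX) and for *Slit1* in CTX alone. *Slit1*, a secreted repellent, had 35.9% in MGE, 48.1% in CGE and 32.6% in LGE, and 66.5% in CTX. Its upstream 2 kb had no covered base in MGE and CGE, 3.15% in LGE and 32.9% in CTX. *Slit2*, its paralog, varied little with 29.2%, 29.8%, 30.7% and 27%, all of it downstream of the 5′ end.

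Among Robo receptors, *Robo3*, known for guiding axons across the midline, was marked in all 4 lists (70.8 to 77.4%). *Robo2*, a Slit receptor of migrating neurons and axons, had 77.7% in MGE, 49.7% in CGE and 9.80% in LGE, and 11% in CTX, a range of 67.9 points that was close to the 67.3 points of *Sema4c*. The MGE peak was wide (chr16:74409594-74412934, 3341 bases, 2.98-fold, −log10 q of 2.71), and the CGE peak was narrower (chr16:74409988-74411975, 1988 bases, 3.38-fold, 7.18). Each lay below its own list's median −log10 q for peaks on guidance genes, which was 7.22 in MGE and 16.2 in CGE. At a q-value under 0.001 the MGE peak was lost and the CGE peak remained. *Robo1* and *Robo4* had no covered base at the outermost 5′ end. At other annotated starts of *Robo1* the most covered window reached 34.5% in MGE, 48.8% in CGE and 39.2% in LGE, and 51.0% in CTX, whereas *Robo4*, known from endothelium, had none at any start.

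Netrin and netrin-G windows were marked for 3 of 6 genes in MGE and CGE and 4 in LGE and CTX. *Ntn1*, the classical secreted netrin, had 64.9% in MGE, 71.0% in CGE and 74.0% in LGE, and 76.4% in CTX. *Ntng1*, a membrane-anchored netrin-G, had 69.9%, 44.6%, 68.2% and 68.7%, with CGE below the other 3. *Ntng2*, its paralog, had 70.6% in MGE, 70.5% in CGE and 73.7% in LGE, and 98.9% in CTX. *Ntn3* had 30.2 to 41.9% of its window and a median of 49.6% of its short gene body covered.

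Netrin receptors were marked for 2 of 5 genes in MGE, 2 in CGE and 3 in LGE, and 4 in CTX. *Dcc*, the attractive receptor, was covered little (8.70% in MGE, 23.1% in CGE and 27.3% in LGE, and 22.1% in CTX), and all of that coverage lay downstream of the 5′ end. *Unc5d*, a repulsive receptor, had 50.6% in MGE, 50.6% in CGE and 55.6% in LGE, and 76.1% in CTX. *Unc5a* and *Unc5b*, repulsive receptors named after their values were seen, had 66.4% and 89.0% in CTX against 28.2 to 32.1% and 42.5 to 62.6% in the GEs. Over the 5 receptors, the mean coverage of the 2 kb downstream of the 5′ end was 74.1% in MGE, 77.4% in CGE and 82.2% in LGE, and 77.1% in CTX, while upstream it was 5.26% in MGE, 4.60% in CGE and 9.11% in LGE, and 48.5% in CTX.

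Regional differences of 50 points or more between the lowest and the highest list were found at 7 of the 68 genes, *Robo2*, *Sema4c*, *Sema5a*, *Plxna4*, *Nrp1*, *Ephb6* and *Epha4*. That was 10.3%, against 1.54% of all genes, and 11.5% of the 61 guidance genes with a covered base, against 3.85% of the 8334 genes with one. *Epha4*, *Nrp1*, *Plxna4* and *Sema5a* kept the difference between their highest and lowest list in each of the 4 settings that changed the lists, and *Ephb6* and *Robo2* lost it at a q-value under 0.001. *Sema4c* lost the contrast between CTX and MGE in 2 settings, while its CGE and MGE values stayed at 65.1% and 0 in all 4.

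CTX was 25 points or more above the mean of the 3 GE lists at 6 genes (8.82%, against 1.76% of all genes): *Unc5b*, *Unc5a*, *Efnb3*, *Sema4c*, *Slit1* and *Ntng2*. It was as far below at 5 (7.35%, against 1.37%): *Robo2*, *Sema5a*, *Ephb6*, *Nrp1* and *Ephb4*. *Ephb4*, an Eph receptor known from blood vessels and named after its values were seen, had 87.4% in MGE, 92.2% in CGE and 88.1% in LGE, and 62.6% in CTX. After each of the 4 changes of the lists, *Ntng2* and *Unc5b* remained among the genes above, and *Ephb4* and *Sema5a* among those below. CGE was 25 points or more above the mean of the other lists at 5 genes (7.35%, against 2.23% of all genes), *Epha4*, *Sema5a*, *Plxna4*, *Sema4c* and *Ntn4*, and below at *Unc5b* (1.47%, against 0.360%). MGE was above at 2 (2.94%, against 0.678%), *Robo2* and *Ephb6*, and below at 5 (7.35%, against 1.56%), *Sema4c*, *Plxna4*, *Ntn4*, *Sema4g* and *Efnb3*. LGE was above at *Nrp1* (1.47%, against 0.553%) and below at *Robo2* and *Sema5a* (2.94%, against 0.764%). A gene with no covered base cannot be called above or below, and such genes were 59.9% of all genes but 10.3% of guidance genes. The shares among genes with a covered base were not counted for these calls. *Ntn4*, a basement membrane netrin, and *Sema4g* were also named after their values were seen. With equal covered bases the count for MGE below went from 5 to 2 and that for CGE above from 5 to 4. *Ntn4* then fell from 79.9% to 0 in CGE, beside 33.6% in MGE. After each of the 4 changes of the lists, *Epha4*, *Plxna4*, *Sema4c* and *Sema5a* remained above in CGE and *Unc5b* below. *Plxna4* remained below in MGE and *Sema5a* below in LGE, and no gene remained above in MGE or LGE. *Robo2* and *Ephb6*, the genes above in MGE, were lost only at a q-value under 0.001. That cut took marked windows from 22 to 17 in MGE, 24 to 23 in LGE and 26 to 23 in CTX, and left 25 in CGE. MGE had the fewest reads, and the part of depth in these losses was not tested.

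In the lists as deposited, calls of CTX above the GEs lay mostly upstream of the 5′ end and calls of CTX below mostly downstream. In the 2 kb upstream alone, CTX was 25 points or more above the GEs at 8 guidance genes (11.8%, against 1.93% of all genes) and below at 2, *Ephb6* and *Plxnc1* (2.94%, against 1.66%). In the 2 kb downstream it was above at 3, *Plxna2*, *Sema5b* and *Sema6c* (4.41%, against 3.09%), and below at 6 (8.82%, against 2.30%). These shares too are over all genes, with and without a covered base, so that small excesses over them cannot be read as particular to guidance genes. The 6 were *Ephb4*, *Nrp1*, *Robo2*, *Sema5a*, *Epha4* and *Sema3c*. *Epha4*, with a peak only in CGE, and *Sema3c* were not called below over the whole window. Downstream calls were not followed through the changes of the lists. Upstream coverage of *Unc5b* was 25.2% in MGE, 0 in CGE and 7.30% in LGE, and 92.1% in CTX. For *Unc5a* it was 0, 6.10%, 7.85% and 77.6%, from a separate CTX peak that ended at -450 (1.37-fold, −log10 q of 2.53). CGE and LGE also had a separate upstream peak of *Unc5a*, ending at -1879 (1.77-fold, 5.74) and -1844 (1.81-fold, 4.37), mostly outside the window. With peaks less than 3 kb apart joined, the *Unc5a* window was at 100% in CGE, LGE and CTX and 28.2% in MGE. For *Unc5d* it was 1.15%, 1.15%, 11.3% and 52.1%, and for *Ntng2* 41.3%, 41.0%, 47.4% and 97.9%. At *Unc5b*, *Unc5d* and *Ntng2* a peak near the start of the gene was present in every list and reached farther upstream in CTX. The CTX peak was the widest at *Unc5d* and *Ntng2* but the narrowest at *Unc5b* (3559 bases, against 4128 to 4699). At *Unc5b* it ended at +1716, against +3842 to +4997 in the GEs. Its −log10 q in CTX was 8.1, where peaks on guidance genes had a median of 11.8. In the GEs the −log10 q was 20.7 to 44.3, beside medians of 7.22 to 16.2. The *Unc5b* gene body held 5.14 kb in CTX and 6.87 to 7.995 kb in the GEs. Higher window coverage of *Unc5b* in CTX thus does not stand for more covered sequence over the gene. *Ntng2*, *Slit1*, *Unc5b* and *Unc5d* kept the upstream difference of 25 points or more in all 4 changes of the lists. *Efnb3*, *Ephb2*, *Sema4c* and *Unc5a* did not. *Efnb3*, *Ephb2*, *Plxna2*, *Plxnc1*, *Sema3c* and *Sema5b* were named after their values were seen.

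Coverage of guidance genes was highest farther inside the gene than that of all genes. Mean coverage of the 2 kb upstream was 17.9% in MGE, 21.8% in CGE and 19.3% in LGE, and 24.1% in CTX. The 2 kb downstream had means of 50.7%, 54.8%, 56.3% and 53.0%. Over all genes the values were 8.56%, 10.4%, 8.87% and 9.58% upstream and 15.1%, 16.9%, 15.6% and 16.5% downstream. In bins of 100 bases, coverage of guidance genes was highest at 900 to 1000 bases inside the gene in MGE and LGE, 1000 to 1100 in CGE and 1100 to 1200 in CTX, with 58.7 to 61.1% of bases covered. Over all genes the highest bin was at 100 to 200 bases in every list, with 20.4 to 24.1%.

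**Figure D3:**
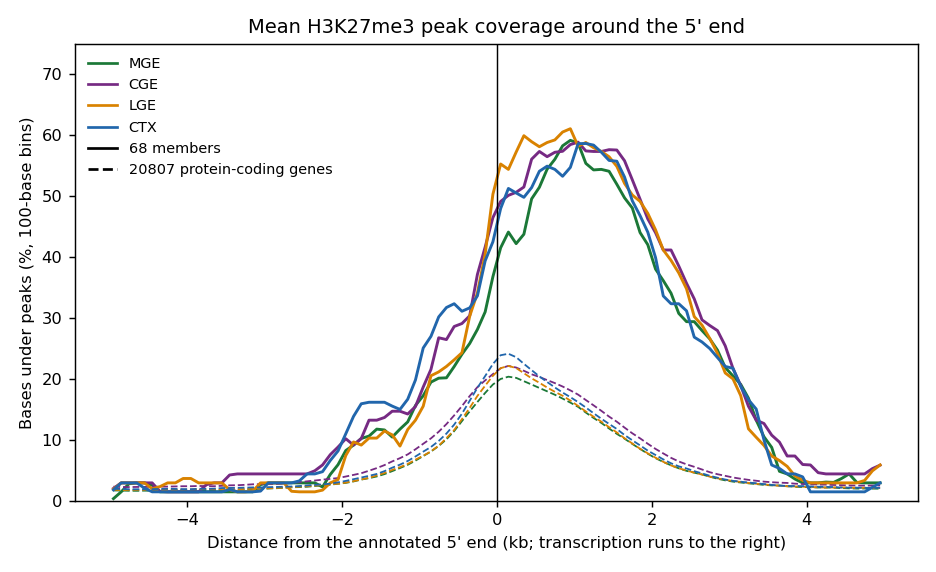
Mean coverage by peaks (percent of bases) in bins of 100 bases from 5 kb before to 5 kb after the annotated 5′ end, with solid lines for the 68 guidance genes, dashed lines for all 20807 protein-coding genes and 1 color per list. The solid lines are highest at about 1 kb inside the gene at 58.7 to 61.1%, and the dashed lines just after the 5′ end at 20.4 to 24.1%.

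The median percent of the gene body under peaks was 1.57% in MGE, 2.68% in CGE and 2.59% in LGE, and 2.21% in CTX, against 0 over all genes in each list. Guidance genes were longer, with a median of 63.7 kb against 17.6 kb over all genes, and genes of like length were not compared. Summed over the 68 genes, 190 kb were covered in MGE, 318 kb in CGE and 260 kb in LGE, and 302 kb in CTX, which is 0.791%, 0.987%, 1.01% and 0.989% of the covered bases of each list. The share of the genome that these genes span was not set beside these values. *Slit3*, which spans 587 kb, held the most: 25.7 kb in MGE, 59.8 kb in CGE and 53.2 kb in LGE, and 61.1 kb in CTX, under 27, 44, 37 and 34 peaks. Trimmed to equal covered bases, *Slit3* held 25.7 kb in MGE, 30.5 kb in CGE and 52.3 kb in LGE, and 51.3 kb in CTX. *Slit1* held 4.68 kb, 18.1 kb, 8.06 kb and 19 kb, and *Efna5* 11.4 kb, 23.9 kb, 7.46 kb and 19.5 kb. Both had more in CGE and CTX, the longer lists, than in MGE and LGE. With equal covered bases *Slit1* held 4.68 kb, 14.49 kb, 8.06 kb and 12.3 kb, and *Efna5* 11.4 kb, 14.1 kb, 6.48 kb and 8.26 kb. *Robo1* held 5.95 kb, 19 kb, 9.53 kb and 20.1 kb, although its outermost 5′ end was bare, and with equal covered bases 5.95 kb, 10.2 kb, 8.74 kb and 18.7 kb. Of its MGE bases none remained at a q-value under 0.001, when CTX still had 18.0 kb.

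**Figure D4:**
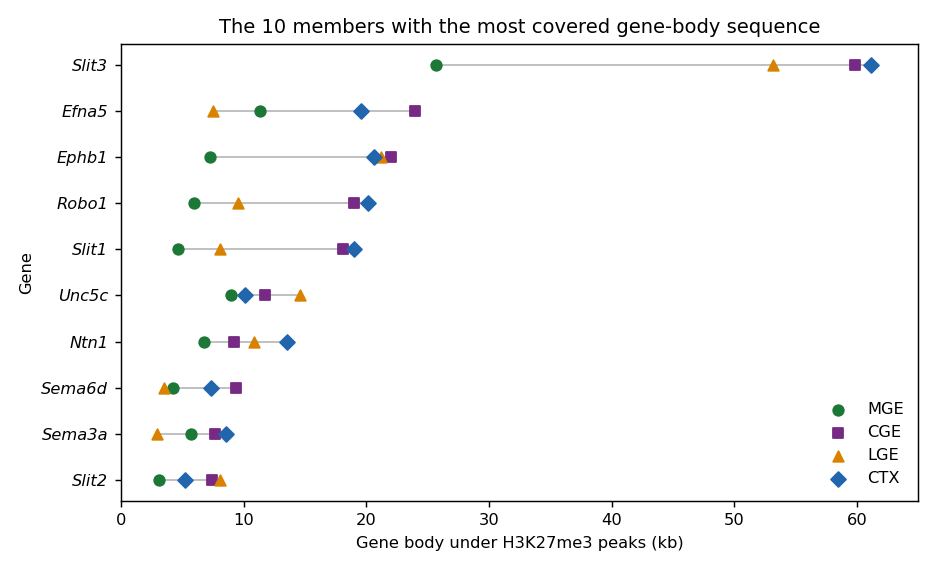
Gene-body sequence under peaks (kb) for the 10 guidance genes with the most of it, with 1 symbol per list and a line from the lowest to the highest list. *Slit3* had 53.2 to 61.1 kb in CGE, LGE and CTX and 25.7 kb in MGE.

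CpG content differed between windows with and without coverage at the outermost 5′ end. Of the 7 genes with no covered base there, 4 stayed so at every annotated start. *Robo1*, *Sema3a* and *Sema3b* were covered at other starts, whose CpG content was not computed. *Sema3b* was named after its values were seen. The ratio of observed to expected CpG dinucleotides over the 4 kb window had a median of 0.235 in the 7 genes with no covered base, 0.447 in the 27 covered but never marked, 0.563 in the 20 marked in 1 to 3 lists and 0.502 in the 14 marked in all 4. The corresponding medians over all genes were 0.262, 0.461, 0.451 and 0.483. Covered but unmarked genes spread widely, from 0.136 to 0.825, and the upper end of that range was *Efnb2*. The genes marked in all 4 lists lay between 0.381 and 0.579.

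**Figure D5:**
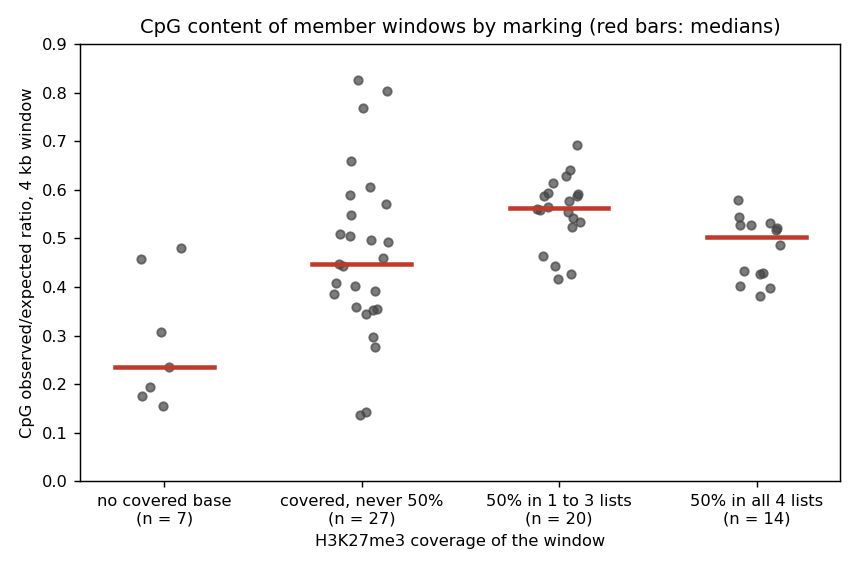
Ratio of observed to expected CpG dinucleotides in the 4 kb window at the outermost 5′ end of each of the 68 guidance genes (points), grouped by H3K27me3 coverage, with the group median as a red bar. The 7 genes with no covered base have the lowest median, 0.235, and the genes marked in all 4 lists sit between 0.381 and 0.579.

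Other genes of these pathways ranged from wholly covered to bare. Of 47 co-receptors and signal transducers, 12 were marked in MGE, 18 in CGE and 15 in LGE, and 15 in CTX, 8 in all 4 lists, and 10 had no covered base. The shares of all genes were 10.0%, 12.6%, 10.5% and 11.2% marked, 7.77% marked in all 4 lists and 59.9% with no covered base. The 8 included the adhesion molecules *Cntn2*, *Cntn4* and *Dscam* (61.6 to 77.5% across genes and lists) and *Crmp1*, a mediator of semaphorin signaling (89.6 to 100%). The 10 without coverage included the small GTPases *Rac1* and *Rhoa*, the kinases *Abl1* and *Cdk5* and the actin regulator *Enah*. *Lrrc4c* and *Lrrc4*, which encode ligands of *Ntng1* and *Ntng2*, had 0 to 19.2% and 4.08 to 22.9%. Differences of 50 points or more were found at 2 of the 47 (against 1.54% of all genes). These were the adaptor gene *Nck2*, with 17%, 0, 57.3% and 59.4%, and *Dpysl3*, a relative of *Crmp1*, with 49.4%, 73.3%, 20.5% and 56.3%. The genes named from the 47 were picked after their values were seen.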

How the data were processed

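H3K27me3 CUT&Tag was performed on 2 MGE and 3 each of CGE, LGE and CTX samples of wild-type embryos, which by their titles are 2 replicates per region, with replicate 2 of CGE, LGE and CTX present as 2 samples. The authors aligned reads to GRCm38 (mm10) with Bowtie2, removed blacklisted reads and Picard duplicates, merged each region's samples with SAMtools and ran MACS in its broad mode, whose version and control are not given in the sources used here. For each peak the deposited columns hold a position, a score (not used here), a fold enrichment, which is a ratio over local background, a −log10 p (not used here) and a −log10 q-value. All peaks had a q-value under 0.1. The lists hold no read counts, so the depth behind single windows is unknown and no counting error is given.

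Coverage of windows, gene bodies and bins was computed on GENCODE M21 genes with Python 3.11.15, pandas 2.3.3, numpy 2.4.6 and pysam 0.24.0, and checked base by base on 400 simulated windows, of which 0 disagreed. No test was run. Promoter sequences came from RefSeq for 58 of the 68 genes.

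The genes and gene lists were chosen with earlier results of these data known. Named genes were those with a range of 50 points or more (7), the 10 marked in all 4 lists with the widest peaks, the 6 others with the highest median gene-body coverage, and 17 listed by name. Alternatives were a q-value under 0.001, peaks under 3 kb apart joined, equal numbers of peaks, equal covered bases, 25% or 75% to call a window marked, the upstream 2 kb alone and the most covered start of any transcript.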

Additional observations from a re-analysis of the deposited data

How the results depend on the processing

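No paired analysis was possible because the authors called peaks on merged samples, and for the same reason no replicate could be left out. The length of the lists, the extent of the window and the threshold limit these values. Lists cut to equal numbers of peaks, taking the strongest, moved none of the 13 counts and medians by more than 1.5 times. Cutting to equal numbers of peaks or equal covered bases leaves MGE, the shortest list, unchanged by design. The other settings moved some of them, and the cause was not tested beyond what each setting removes or adds. At a q-value under 0.001, genes with no covered base rose from 7 to 17, genes with CTX below the GEs fell from 5 to 2, and the median gene-body coverage was 0.458% in MGE, 1.46% in CGE and 1.25% in LGE, and 1.34% in CTX. With peaks joined, 12 genes instead of 7 differed by 50 points or more. With equal covered bases, 11 genes had no covered base, and the gene-body medians were 1.30% in CGE and 1.34% in CTX. Marked at 25%, the counts were 44 in MGE, 48 in CGE and 44 each in LGE and CTX, with 38 in all 4 lists. Marked at 75%, they were 5, 6, 6, 6 and 2. In the upstream 2 kb alone, 10, 10, 9 and 15 genes were marked, 7 in all 4 lists, 20 had no covered base and 2 were lower in CTX. With the most covered start of any transcript, 4 genes had no covered base and 10 were higher in CTX. Of the 14 genes marked in all 4 lists, 13 remained so in each of the 4 changes of the lists.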

Other observations

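Migration cues outside the guidance families were also examined. Of 16 such genes, 10 had a marked window in MGE, 10 in CGE and 9 in LGE, and 11 in CTX, 8 in all 4 lists, and none was without a covered base. Over all genes, 10.0%, 12.6%, 10.5% and 11.2% were marked, 7.77% in all 4 lists, and 59.9% had no covered base. *Reln*, the secreted protein that orders migrating cortical neurons, had 94.0% in MGE, 99.2% in CGE and 97.3% in LGE, and 99.5% in CTX. Its receptor *Vldlr* had 9.58%, 9.93%, 41.5% and 57.5%, and the other receptor *Lrp8* had 24.0% in MGE and 13.4% in LGE and no covered base in CGE or CTX.

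Chemokine and neuregulin genes held both differing and steady windows. *Cxcr4*, a receptor of migrating interneurons for the chemokine *Cxcl12*, had 87.8% in MGE, 90.4% in CGE and 31.6% in LGE, and 23.5% in CTX, *Cxcl12* had 78.7 to 86.5%, and *Ackr3*, the other *Cxcl12* receptor, had 43.2 to 51.4%. *Nrg1* had 78.3% in MGE, 48.7% in CGE and 78.7% in LGE, and 80.6% in CTX, and *Nrg3* had 82.6 to 87.3%. *Erbb4*, its receptor on interneurons, had 31.8%, 40.9%, 41.8% and 62.9%. These values rest on 1 merged list per region and were not tested. These genes were named after their values were seen.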
